A study of Homo sapiens with 8 samples.

Results

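The genes described here are 10 transcription factor genes of the AP-1 and early growth response families, FOS, FOSB, FOSL1, FOSL2, JUN, JUNB, JUND, ATF3, EGR1 and EGR3, chosen by name from the 25369 gene symbols of the expression table, and all 10 were found in it. RNA-seq was performed on MCF10A cells, a spontaneously immortalized, non-tumorigenic line of human mammary epithelial cells, after 7 days of encapsulation in 1 of 4 hydrogels. Soft IPN and stiff IPN were networks of alginate interpenetrated with reconstituted basement membrane (rBM). According to the paper, added calcium cross-links the alginate and so raises the stiffness. Stiffness and added calcium therefore cannot be told apart between these IPNs. Soft col:rBM was a soft mixture of collagen-1 and rBM, and stiff col was a stiff collagen-1 gel, so that the collagen gels differed from each other in composition as well as in stiffness. Each gel had 2 libraries, replicate 1 and replicate 2, from independent trials with the same cell line, with no untreated or 2D library among the 8. Gels, cells and the RNA of all cells in a gel were harvested together, so that fewer cells of a kind and less RNA per cell cannot be told apart. The question put to these genes was whether their mRNA differed with stiffness within a matrix and with the matrix at a given stiffness.

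AP-1 is a dimer of leucine zipper proteins, in which a FOS protein pairs with a JUN protein, or JUN proteins pair with each other, and the dimer binds a short palindrome known as the TPA response element (TRE). ATF3 belongs to the related ATF/CREB group, which also binds the cyclic AMP response element (CRE), and EGR proteins are zinc finger factors that bind GC-rich sites. FOS, FOSB, JUNB, ATF3, EGR1 and EGR3 are textbook immediate early genes, transcribed within minutes of a growth factor, stress or mechanical stimulus through SRF and ternary complex factors downstream of ERK, whereas FOSL1 and FOSL2 follow later and JUND is made at a more constant rate.

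The sequences just before the transcription start are shown for EGR1, FOS and JUND, because EGR1 and FOS were lower in stiff IPN and in replicate 2, while JUND had a higher mean in stiff IPN. They are the 250 bases upstream of the start, on the strand of the gene, from RefSeq on GRCh38.p14, and capitals mark the motifs found among those searched. The motifs were the TRE (TGACTCA or TGAGTCA), the CRE (TGACGTCA), the CArG box bound by SRF, the EGR sites GCGTGGGCG and GCGGGGGCG, and TATAAA, each on both strands and without overlap between different motifs in the windows shown. EGR1 (chr5:138465229-138465478, + strand) held 2 CArG boxes, at positions -105 to -96 and -83 to -74 from the start. FOS (chr14:75278578-75278827, + strand) held TATAAA at -33 to -28. JUND (chr19:18281623-18281872, - strand) held a CRE at -200 to -193.
EGR1: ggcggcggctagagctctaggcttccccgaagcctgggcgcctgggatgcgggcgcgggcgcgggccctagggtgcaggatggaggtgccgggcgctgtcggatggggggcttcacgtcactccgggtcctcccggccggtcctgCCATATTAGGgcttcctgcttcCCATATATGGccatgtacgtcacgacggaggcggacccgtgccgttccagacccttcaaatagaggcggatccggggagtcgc
FOS: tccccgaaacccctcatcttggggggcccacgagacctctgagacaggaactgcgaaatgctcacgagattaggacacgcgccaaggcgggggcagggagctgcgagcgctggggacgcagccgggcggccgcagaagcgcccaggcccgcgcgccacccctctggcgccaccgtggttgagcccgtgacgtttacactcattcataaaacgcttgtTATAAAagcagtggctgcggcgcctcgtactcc
JUND: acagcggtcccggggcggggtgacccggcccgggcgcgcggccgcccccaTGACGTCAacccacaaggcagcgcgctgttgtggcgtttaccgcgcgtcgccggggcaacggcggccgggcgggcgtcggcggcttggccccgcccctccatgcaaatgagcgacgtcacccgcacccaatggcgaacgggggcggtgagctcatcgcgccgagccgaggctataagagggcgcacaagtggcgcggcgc

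Of the 10 genes, 8 had an entry in the promoter table, ATF3 with 2 starts, and FOSL1 and EGR3 had none. TATAAA was also found upstream of FOSB at -30 to -25, upstream of JUNB at -31 to -26 and upstream of the second ATF3 start at -230 to -225. No TRE and neither EGR site was found in these 9 windows. Among all 35116 promoters of the table, windows of the same length held a CArG box in 1.16%, a CRE in 1.65%, a TRE in 4.2%, GCGTGGGCG in 0.72%, GCGGGGGCG in 4.72% and TATAAA in 10.7%. These matches describe the letters only.

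The libraries held between 13065615 and 18583116 reads on genes, worked out from the deposited values. The values are normalized counts, that is reads per gene scaled by 1 factor per library. Of the marker genes, all 9 basal mammary epithelial markers (KRT5, KRT14, TP63 and others) and 5 of 6 shared epithelial markers were at 10 or more in every library, whereas KRT19 lay between 1 and 6. PTPRC and COL1A2 were at 0 in every library, and COL3A1 and LUM reached at most 1. CD68, a lysosomal marker of macrophages, was between 324 and 5017, and COL1A1 and DCN were between 168 and 333 and between 526 and 1217. In a principal component analysis of all genes tested, the first component held 47.4% of the variance. Stiff IPN replicate 2 was highest on it, at 62.1, where the next highest library was at 26.69. Replicate 1 of soft IPN, soft col:rBM and stiff col lay at the other end, at -36.12, -50.42 and -49.43. Replicate 2 was the higher in every gel. The values that rest most on stiff IPN replicate 2 are given with and without it.

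All 10 genes were among the 13369 that were tested, which needed 2 or more libraries with 10 or more normalized counts. Per kilobase of annotated exon, which allows genes to be set side by side, JUNB was the most abundant, with a median of 1351 normalized counts per kb over the 8 libraries. EGR1 followed at 604.4, FOSL1 at 513.5, FOS at 393, JUND at 370.1, JUN at 365 and FOSL2 at 292. ATF3 at 20.9, FOSB at 7.38 and EGR3 at 5.56 normalized counts per kb were far lower. EGR3 had as few as 10 estimated reads in a library, for which counting alone gives an error of 31.6%, and FOSB as few as 21.1 reads. Their values are therefore less certain than those of JUNB, for which this error was at most 2.67%.

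**Figure D1:**
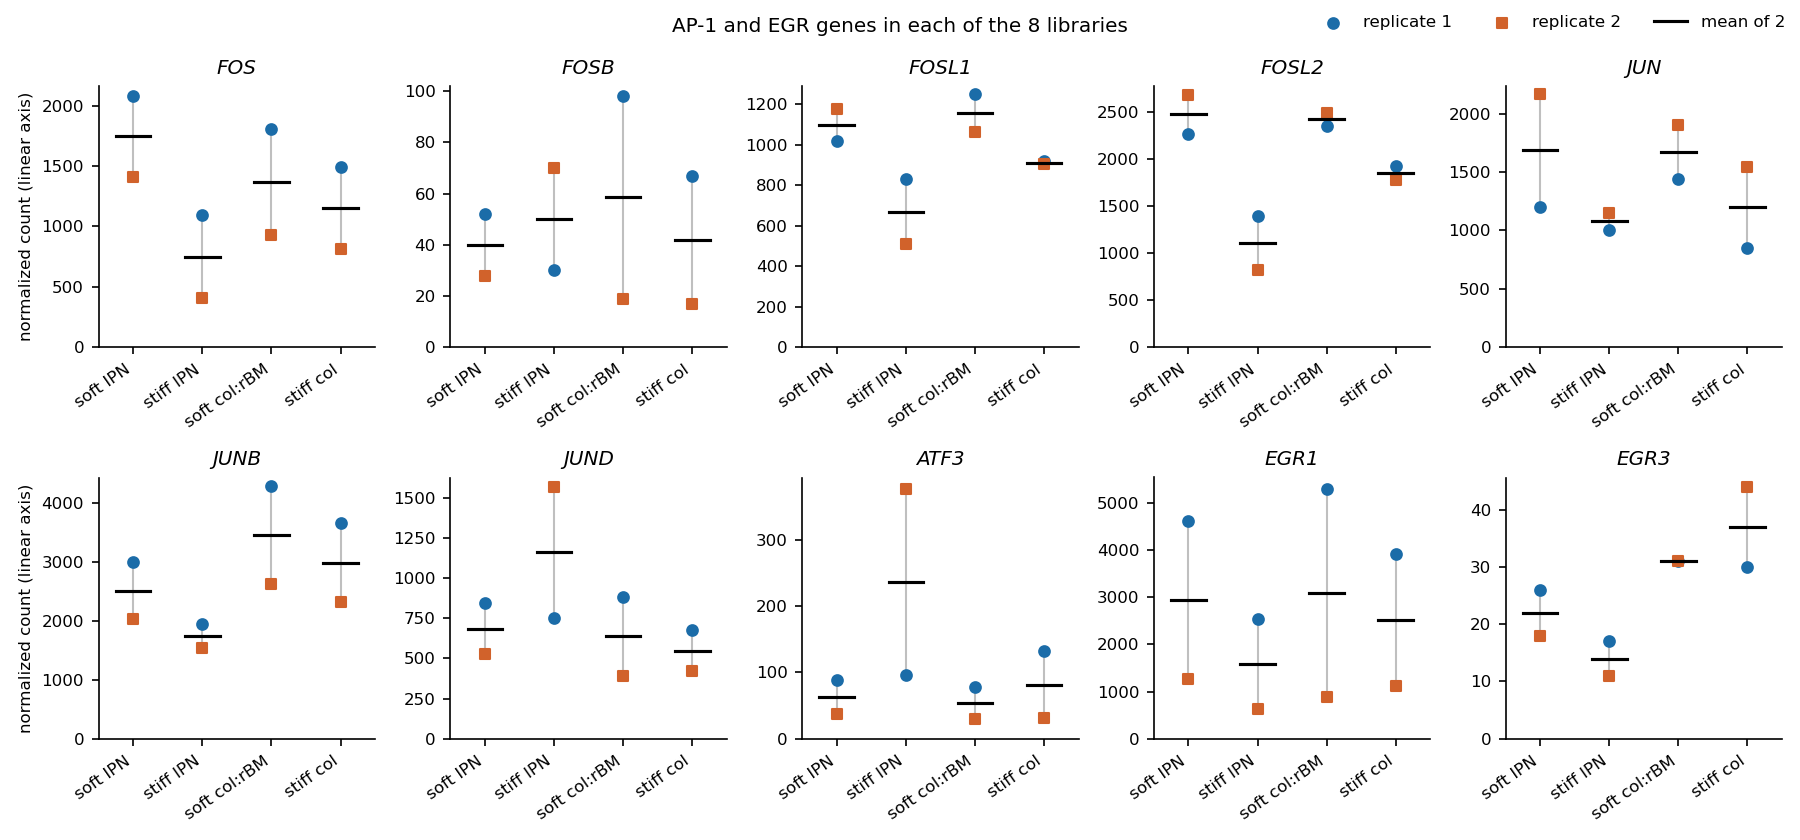
Normalized counts of the 10 genes (vertical axis, linear from 0, scaled for each gene) in the 4 gels, with replicate 1 as circles, replicate 2 as squares and the mean of the 2 as a bar. EGR1 was lower in replicate 2 in all 4 gels, and ATF3 and JUND were highest in stiff IPN replicate 2, at 377 and 1568.

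Within the FOS family FOSL1 was the largest component in every library but soft IPN replicate 1, where FOS was. FOSL1 made up between 35.5% and 51.5% of the summed per-kb level of FOS, FOSB, FOSL1 and FOSL2, FOS between 24.2% and 43.0%, FOSL2 between 19.7% and 28.8% and FOSB between 0.28% and 2.4%. The sum itself was lowest in the stiff IPN libraries, at 982.8 and 524.2 normalized counts per kb for replicates 1 and 2, against 1517 and 1447 in soft IPN, 1578 and 1208 in soft col:rBM and 1236 and 985.9 in stiff col. The share of FOS was lower in replicate 2 than in replicate 1 in each gel, for instance 30.6% against 43.0% in soft IPN. Within the JUN family JUNB made up between 42.5% and 77.4%, JUN between 9.1% and 30.3% and JUND between 9.42% and 41.3%. The highest JUND share, 41.3%, was that of stiff IPN replicate 2, and the next highest was 22.5%, in stiff IPN replicate 1.

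FOS, the founding FOS gene (ENSG00000170345, hg19 chr14:75745529-75748933, + strand), had 2078 and 1412 normalized counts in soft IPN, 1093 and 405 in stiff IPN, 1809 and 931 in soft col:rBM and 1489 and 812 in stiff col, replicate 1 first. Both stiff IPN libraries lay below both soft IPN libraries, and in every gel replicate 2 was the lower. FOSL2, a FOS-related gene (hg19 chr2:28615315-28640184, + strand), had 2263 and 2680 in soft IPN, 1389 and 822 in stiff IPN, 2348 and 2491 in soft col:rBM and 1926 and 1779 in stiff col. The stiff IPN libraries were the lowest of all 8 and the 2 stiff col libraries came next, without overlap with any soft gel.

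FOSL1, which encodes FRA-1 (hg19 chr11:65659520-65668044, - strand), had 1017 and 1179 in soft IPN, 831 and 509 in stiff IPN, 1254 and 1066 in soft col:rBM and 921 and 905 in stiff col. Both stiff gels lay below both soft gels without overlap. FOSB (hg19 chr19:45971253-45978437, + strand) was low throughout, at 52 and 28 in soft IPN, 30 and 70 in stiff IPN, 98 and 19 in soft col:rBM and 67 and 17 in stiff col, and the gels overlapped. Replicate 2 was the higher library of FOSB in stiff IPN and the lower in the other 3 gels.

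JUN, the founding JUN gene (hg19 chr1:59242517-59249720, - strand), had 1204 and 2171 in soft IPN, 1001 and 1153 in stiff IPN, 1443 and 1899 in soft col:rBM and 853 and 1540 in stiff col. Replicate 2 was the higher in all 4 gels, opposite to FOS. JUNB (hg19 chr19:12902300-12904129, + strand) had 2998 and 2028 in soft IPN, 1950 and 1532 in stiff IPN, 4295 and 2628 in soft col:rBM and 3660 and 2315 in stiff col. Its 2 stiff IPN libraries were the lowest of the 8. JUNB shares 14.2% of its exon bases with HOOK2 on the opposite strand, which had between 146 and 327 normalized counts, and whether the counting used strand is not given in the sources used here.

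JUND (hg19 chr19:18390504-18392432, - strand) had 842 and 525 in soft IPN, 753 and 1568 in stiff IPN, 880 and 393 in soft col:rBM and 675 and 423 in stiff col. ATF3, a stress-responsive partner of JUN proteins (hg19 chr1:212738676-212794119, + strand), had 89 and 37, then 96 and 377, 78 and 30, and 132 and 31 in the same order. For both genes 1 library, stiff IPN replicate 2, was well above the other 7.

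EGR1 (hg19 chr5:137801168-137804992, + strand) had 4628 and 1262 in soft IPN, 2530 and 637 in stiff IPN, 5310 and 876 in soft col:rBM and 3919 and 1110 in stiff col. The lowest replicate 1 library, at 2530, was above the highest replicate 2 library, at 1262. EGR3 (hg19 chr8:22545172-22550993, - strand) had 26 and 18 in soft IPN, 17 and 11 in stiff IPN, 31 and 31 in soft col:rBM and 30 and 44 in stiff col. Its stiff IPN libraries were the lowest and did not overlap with those of any other gel. EGR2 was at most 6 in any library and was not tested.

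Stiffness within the IPNs, together with the added calcium that sets it, was addressed by stiff IPN against soft IPN. Of the 10 genes, 7 had a lower mean in stiff IPN and 3 (JUND, ATF3 and FOSB) a higher one, and the median log2 difference of the 10 was -0.61, against -0.01 over all genes tested. Leaving out 1 library at a time moved this median between -0.80 (without stiff IPN replicate 1) and -0.30 (without soft IPN replicate 1), with -0.34 without stiff IPN replicate 2. Within replicates 1 and 2 it was -0.60 and -0.79. For 7 genes no stiff IPN library fell within the range of soft IPN, of which FOS, FOSL1, FOSL2, JUN, JUNB and EGR3 were lower and ATF3 higher in stiff IPN, where 41.9% of all genes tested did not overlap either. In the limma fit with 1 mean per gel, 0 of 10 genes passed a Benjamini-Hochberg adjusted p of 0.05, as did 0% of all genes, and 3 of the 10 (FOSL2, FOSL1 and FOS) had an unadjusted p under 0.05, as did 9.31% of all genes.

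Over all genes the replicate numbers marked libraries that deviated together. The fit was therefore also run with the replicate number as a block, that is comparing gels within replicate 1 and within replicate 2. Over the 10 genes alone, the replicate change in stiff IPN was not shared. Its Pearson r with that in soft IPN, soft col:rBM and stiff col was -0.005, -0.081 and -0.257. With the block 3 of 10 genes passed, all lower in stiff IPN, where 3.82% of all genes passed and 2.13% passed in the lower direction. FOS fell by 1.36 on the log2 scale (block SE 0.20, adjusted p = 0.0254 with the block and 0.519 without), with -0.93 in replicate 1 and -1.80 in replicate 2. FOSL2 fell by 1.20 (block SE 0.23, adjusted p = 0.0369 and 0.472), with -0.70 and -1.70. EGR1 fell by 0.93 (block SE 0.20, adjusted p = 0.0468 and 0.794), with -0.87 and -0.98. The SE of EGR1 without the block was 1.099, larger than its difference, since each gel held a high and a low replicate.

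FOSL1 and JUNB were lower in both replicates but did not pass with the block (log2 differences -0.75 and -0.51, each with an adjusted p of 0.085). The same held for JUN (-0.59, adjusted p = 0.112) and EGR3 (-0.62, adjusted p = 0.367). ATF3, JUND and FOSB had means of 1.71, 0.71 and 0.26, which came from replicate 2: their differences were 0.11, -0.16 and -0.77 in replicate 1 and 3.31, 1.58 and 1.29 in replicate 2. Stiff IPN replicate 2 was also left out with the block kept, an alternative chosen after seeing the data. Stiff IPN then rested on 1 library, whose spread is unknown, so only the differences are given. FOS became -1.05, FOSL2 -0.79, JUNB -0.66 and EGR1 -0.98, all still lower in stiff IPN. FOSL1, JUN and EGR3 became -0.41, -0.34 and -0.33, and ATF3, JUND and FOSB became -0.04, -0.24 and -1.19.

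**Figure D2:**
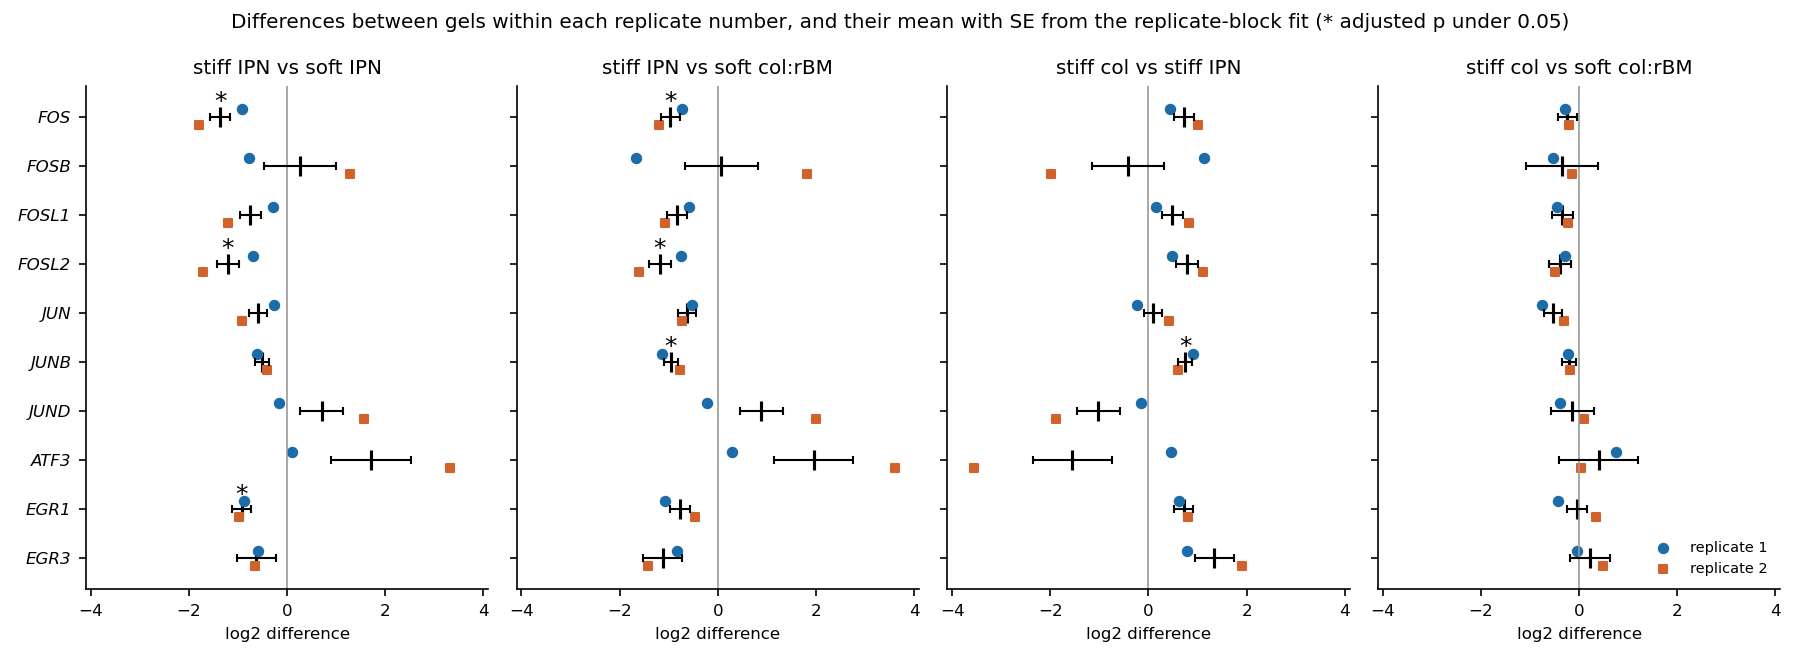
Log2 difference between gels for each of the 10 genes in 4 comparisons, within replicate 1 (circles) and within replicate 2 (squares), with the mean as a vertical tick, its SE from the fit with the replicate block as a bar, and an asterisk where the adjusted p was under 0.05 in that fit. In stiff IPN against soft IPN, FOS, FOSL2 and EGR1 carry the asterisk at -1.36, -1.20 and -0.93, whereas the replicates of ATF3 lie at 0.11 and 3.31.

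The same stiff IPN libraries were set against soft col:rBM, so this comparison is not independent of the last. These gels differ in stiffness, added calcium and matrix together. Without the block 0 of 10 genes passed, against 0.0598% of all genes. With the block 3 of 10 passed, all lower in stiff IPN, against 3.55% of all genes in either direction and 1.56% in the lower one. They were JUNB (-0.96, block SE 0.14, adjusted p = 0.0191), FOSL2 (-1.18, block SE 0.23, adjusted p = 0.0349) and FOS (-0.96, block SE 0.20, adjusted p = 0.0425). Without stiff IPN replicate 2, FOSL2 (-0.76, adjusted p = 0.0323) and JUNB (-1.11, adjusted p = 0.00828) still passed and FOS did not (-0.65, adjusted p = 0.0524), where 6.14% of all genes did. FOSL1, JUN and EGR3 differed by -0.83, -0.62 and -1.12 and EGR1 by -0.76, none past the threshold. ATF3, JUND and FOSB had means of 1.95, 0.89 and 0.08.

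The matrix at high stiffness, together with the added calcium of stiff IPN, was addressed by stiff col against stiff IPN. This comparison again shares the stiff IPN libraries. Here 7 genes had a higher mean in stiff col and 3 a lower one, with a median log2 difference of 0.60 against 0.00 over all genes. This median was 0.15 without stiff IPN replicate 2, 0.35 without stiff col replicate 1 and 0.88 without stiff IPN replicate 1. Within replicates 1 and 2 it was 0.46 and 0.70. The libraries did not overlap for 5 genes (FOSL1, FOSL2, JUNB and EGR3 higher and JUND lower in stiff col), against 30.9% of all genes. No gene of the 10 passed without the block (0 of 10, and 0% of all genes), where FOSL2 and EGR3 had an unadjusted p under 0.05, as had 6.27% of all genes. With the block 1 passed, JUNB, which was higher in stiff col by 0.75 (block SE 0.14, adjusted p = 0.0415, and 0.789 without the block), against 2.47% of all genes in either direction and 1% in the higher one. Without stiff IPN replicate 2 its difference was 0.90 (adjusted p = 0.0156), and it was again the 1 gene of the 10 that passed, against 5.42% of all genes. EGR3 differed by 1.35, FOSL2 by 0.79, FOS by 0.72, EGR1 by 0.72, FOSL1 by 0.49 and JUN by 0.09, and JUND, ATF3 and FOSB by -1.02, -1.55 and -0.42, none past the threshold.

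The 3 remaining pairs of gels left out stiff IPN. Between stiff col and soft col:rBM the 10 log2 differences ran from -0.53 to 0.40 with a median of -0.22. Within replicates 1 and 2 this median was -0.33 and -0.17. In the fit without the block it turned to 0.23 without soft col:rBM replicate 1 and 0.16 without stiff col replicate 2. Leaving out 1 library there sets 1 replicate number of a gel against both of the other. The replicate shift then enters the difference. In either fit 0 of 10 passed, as did 0% of all genes. FOS, FOSB, FOSL1, FOSL2, JUN and JUNB were lower in stiff col in both replicates, and the libraries of FOSL1 and FOSL2 did not overlap, as was so for 19.0% of all genes. Between soft col:rBM and soft IPN the differences ran from -0.40 to 0.50 with a median of 0.00. This median was 0.22 and -0.24 within replicates 1 and 2, -0.40 without soft col:rBM replicate 1 and 0.42 without soft col:rBM replicate 2. Here 0 of 10 passed, against 0% of all genes without and 0.0224% with the block. Between stiff col and soft IPN the differences ran from -0.64 to 0.72 with a median of -0.24. Within replicates 1 and 2 this median was -0.19 and -0.35. In the fit without the block it turned to 0.15 without soft IPN replicate 1 and 0.24 without stiff col replicate 2. In either fit 0 of 10 passed, against 0% of all genes. FOS differed here by -0.64, both with all 8 libraries and without stiff IPN replicate 2 with the block kept.

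Whether the effect of stiffness differed between collagen gels and IPNs was tested as the difference of the 2 effects, and 0 of 10 genes passed in either fit, against 0% of all genes without and 0.015% with the block. The lowest adjusted p among the 10 was 0.292, for FOS with the block. With the block and without stiff IPN replicate 2, the differences of ATF3, FOSB, JUND and JUN turned from -1.31, -0.61, -0.85 and 0.06 to 0.44, 0.84, 0.10 and -0.19. The F test over all 4 gels passed 0 of 10 genes, against 0% of all genes without and 1.58% with the block, where FOS and JUNB each had an adjusted p of 0.0511. Without stiff IPN replicate 2, FOS (adjusted p = 0.0326), FOSL2 (0.0478) and JUNB (0.0221) passed it with the block, as did 4.27% of all genes.

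Ordered by the arithmetic mean of the 2 normalized counts, stiff IPN was the lowest gel for 7 of the 10 genes and the highest for JUND and ATF3. FOS, FOSL2 and JUN had the order soft IPN, soft col:rBM, stiff col and stiff IPN from high to low. FOSL1 and EGR1 had the order soft col:rBM, soft IPN, stiff col and stiff IPN, and JUNB the order soft col:rBM, stiff col, soft IPN and stiff IPN. EGR3 was highest in stiff col, then soft col:rBM, soft IPN and stiff IPN. JUND ran from stiff IPN through soft IPN and soft col:rBM to stiff col, ATF3 from stiff IPN through stiff col and soft IPN to soft col:rBM, and FOSB from soft col:rBM through stiff IPN and stiff col to soft IPN. On the log2 scale used for testing, 4 pairs of neighbours stood the other way round: soft IPN and soft col:rBM for JUN (a difference of 0.03) and for EGR1 (0.16), and both soft col:rBM and stiff IPN (0.08) and stiff col and soft IPN (0.16) for FOSB. Of the 30 pairs of neighbours, 0 passed in either fit, the lowest adjusted p being 0.085 with the block and 0.604 without, although the libraries of 7 pairs did not overlap.

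The replicate numbers were also compared with each other. In a fit of gel and replicate number, replicate 2 differed from replicate 1 for 4 of 10 genes, against 27.1% of all genes tested. EGR1 fell by 2.07 on the log2 scale, to 0.238 of its level in replicate 1 (SE 0.14, adjusted p = 0.000687), which ranked 8 of 13369 genes by p. FOS fell by 0.95 (SE 0.14, adjusted p = 0.00483) and JUNB fell by 0.57 (SE 0.10, adjusted p = 0.00798), and all 3 were lower in replicate 2 in each of the 4 gels. JUN rose by 0.58 (SE 0.13, adjusted p = 0.0182) and was higher in each of the 4 gels. Among all genes 14.4% passed in the lower and 12.7% in the higher direction, and 23.1% were lower and 21.4% higher in replicate 2 in all 4 gels.

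FOSB, ATF3 and JUND were lower in replicate 2 in soft IPN, soft col:rBM and stiff col and higher in it in stiff IPN. For ATF3 these log2 differences were -1.24, -1.35 and -2.06 against 1.96, for JUND -0.68, -1.16 and -0.67 against 1.06, and for FOSB -0.87, -2.31 and -1.92 against 1.20. Leaving out either stiff IPN library takes the whole gel out of this comparison, since 1 library gives no replicate difference. Over soft IPN, soft col:rBM and stiff col, ATF3, FOSB and JUND then differed by -1.55, -1.70 and -0.84. With all 4 gels their differences were -0.672, -0.975 and -0.364 and did not pass. FOSL1, FOSL2 and EGR3 differed between replicates by -0.19, -0.14 and -0.14 with all 4 gels and did not pass.

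**Figure D3:**
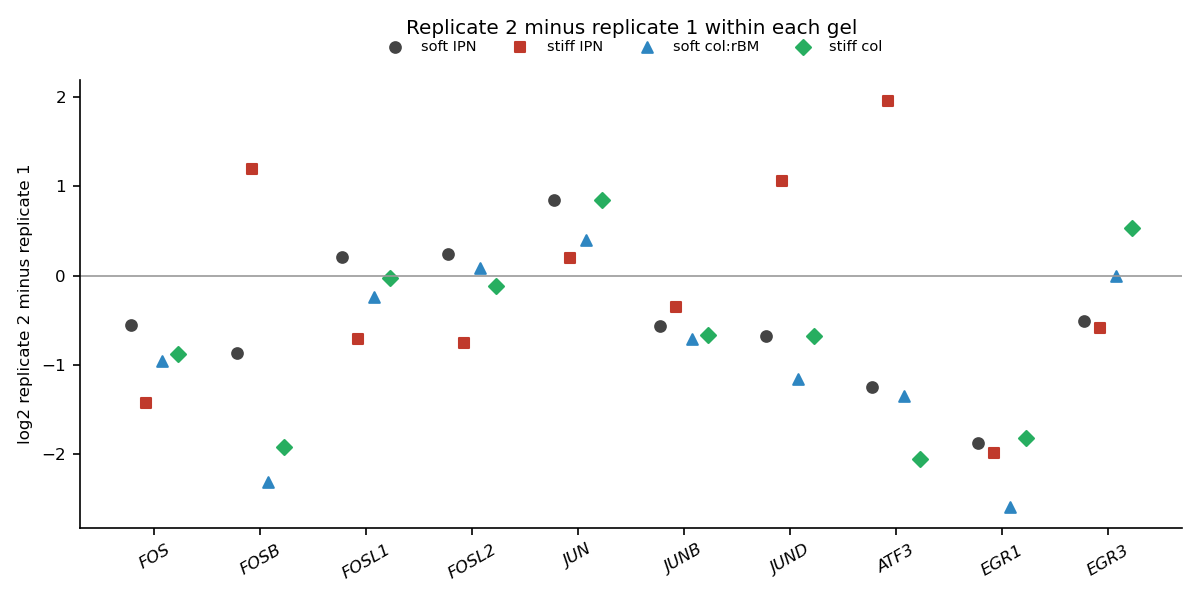
Log2 difference between replicate 2 and replicate 1 (vertical axis) within each of the 4 gels (symbols) for the 10 genes, with 0 as a line. EGR1 lay between -2.60 and -1.82 in the 4 gels, while ATF3, JUND and FOSB were above 0 in stiff IPN alone.

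Of the variance of EGR1 over the 8 libraries, 87.6% went with the replicate number, 10.4% with the gel and 2.0% with neither. The medians of these parts over all genes tested, each taken separately, were 29.5%, 39.1% and 19.2%. FOSL2, EGR3 and FOSL1 were the reverse of EGR1, with 85.3%, 82.8% and 73.7% with the gel. FOS was divided between them, with 45.7% with the replicate number and 49.4% with the gel. The part with neither was 2.2% for JUNB and 4.9% for FOS, and it reached 63.6% for FOSB, 48.6% for JUND and 46.3% for ATF3. Markers moved with the replicate number too. CD68 had 4222 and 2092 in soft IPN, 1220 and 324 in stiff IPN, 5017 and 1348 in soft col:rBM and 4360 and 990 in stiff col, lower in replicate 2 in every gel as EGR1 was, while the leukocyte marker PTPRC was at 0 in all 8 libraries. KRT5 and KRT14 were higher in replicate 2 in every gel, for instance 19940 and 44022 for KRT5 in soft IPN. The part of these shifts in the values of the 10 genes was not tested.

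Across the 8 libraries the 10 genes fell into patterns of their own, given here as Pearson r of log2(normalized count + 1), which rests on 8 points that share gels and replicate numbers. FOSL1 and FOSL2 were the most alike (r = 0.97), then JUND and ATF3 (0.94), FOS and EGR1 (0.86), and FOS and FOSL1 (0.83). FOSL2 and ATF3 went opposite ways (-0.78). FOS and JUN, the canonical AP-1 pair, had an r of 0.00, which became 0.84 once the mean of each replicate number was taken out. EGR1 and JUN likewise went from -0.45 to 0.71. With the same step, FOSL1 and FOSL2 stayed at 0.97 and JUND and ATF3 at 0.93. JUND and ATF3 were both highest in stiff IPN replicate 2, at 1568 and 377, and r without this library was not worked out. Within replicate 1 the gels stood in opposite order for these 2 genes. From soft col:rBM through soft IPN and stiff IPN to stiff col, JUND had 880, 842, 753 and 675 and ATF3 had 78, 89, 96 and 132.

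**Figure D4:**
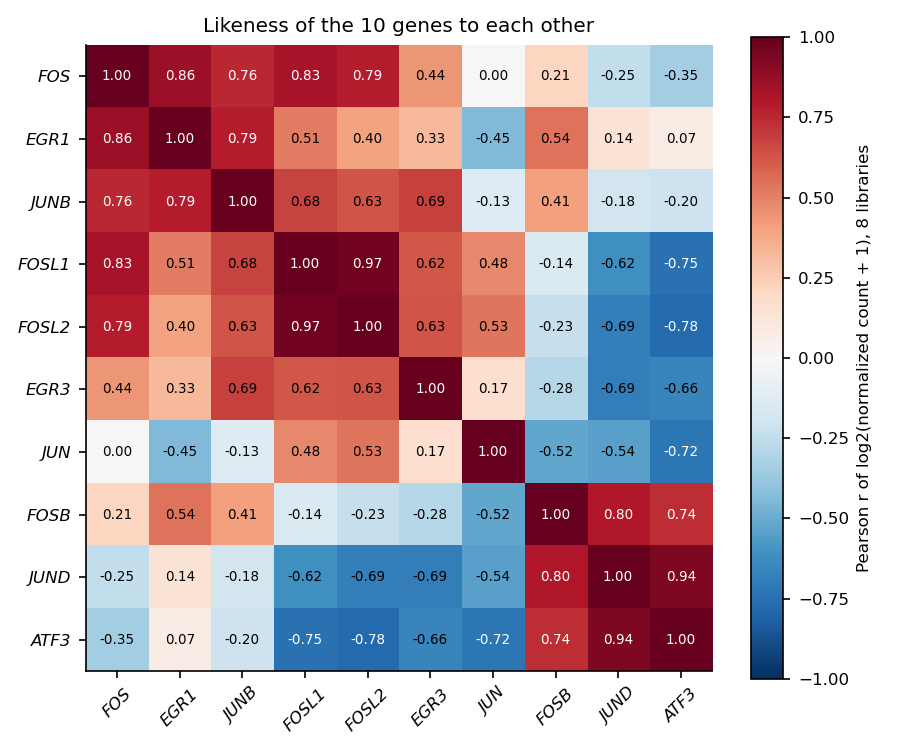
Pearson r (colour and number) between each pair of the 10 genes over the 8 libraries, on log2(normalized count + 1). FOS, EGR1, JUNB, FOSL1, FOSL2 and EGR3 form a block of positive values between 0.33 and 0.97, and FOSB, JUND and ATF3 another between 0.74 and 0.94.

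Among all genes tested, those most like each of the 10 over the 8 libraries had an r of at least 0.964. They were ESYT2, NEK6 and EIF4B for FOS, DNAJB2, PNPLA2 and FSTL3 for FOSB, SRGAP1, NTSR1 and CCNG2 for FOSL1, and CIT, NCAPD2 and HNRNPUL1 for FOSL2. For JUN they were MFAP1, CIDEB and FANCC, for JUNB IFFO1, SENP2 and NCK2, for JUND KLHL29, OSGIN1 and SP6, and for ATF3 PCYT2, ATHL1 and CDK5RAP3. For EGR1 they included CAMLG and R3HDM2, and for EGR3 they were SDE2, ZNF354C and SLC22A3.

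Genes around these factors were examined as 7 lists, in which 0 genes passed without the block between stiff and soft IPN, as for all genes. The lists were chosen with earlier results of these data known, so their counts are descriptive and do not test enrichment. With the block, where 3.82% of all genes passed, 2 of 22 tested partners and relatives of AP-1 passed, ATF7 lower at -0.68 (adjusted p = 0.0474) and CREB5 higher at 1.40 (adjusted p = 0.031) in stiff IPN. Of 6 tested SRF and ternary complex factors, ELK1 passed, lower at -0.78 (adjusted p = 0.0474). Without stiff IPN replicate 2, with the block kept, ATF7 was at -0.55, ELK1 at -0.56 and CREB5 at 1.42. Of 27 tested kinases from EGFR to the MAP kinases and RSKs, 0 passed in either fit. EGFR, the receptor, had the lowest unadjusted p without the block, 0.047, at -0.83, which became -0.15 with the block and without stiff IPN replicate 2. Of the EGR corepressors, NAB2, which EGR1 induces, differed by -0.73 (adjusted p = 0.109 with the block) and NAB1 by 0.15, and neither passed.

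Of 28 tested other immediate early genes, 5 passed with the block between the IPNs, in both directions. DUSP1, a phosphatase of MAP kinases, was lower, at -0.76 (adjusted p = 0.0489), as were BTG1, at -0.62 (0.0464), and ZFP36L1, an mRNA decay factor, at -0.75 (0.0479). PLK2, a kinase, was higher by 1.26 (adjusted p = 0.0464) and CCNL1, a cyclin, by 1.25 (0.04). The median of the list was 0.01. In the same fit without stiff IPN replicate 2, the median was -0.17. DUSP1, BTG1 and ZFP36L1 were then at -0.865, -0.604 and -0.842, and PLK2 and CCNL1 at 0.966 and 0.968. Between replicates 8 of 28 passed, a share near the 27.1% of all genes, BTG2 and PLK2 higher and ZFP36, ZFP36L1, DUSP1, MCL1, RHOB and TRIB1 lower in replicate 2.

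Of 29 tested genes with known AP-1 sites, 8 passed with the block between stiff and soft IPN, against 3.82% of all genes, of which 7 were higher and 1 lower in stiff IPN, and the median of the list was 0.24. The higher ones were TNC, a matrix glycoprotein (2.38, adjusted p = 0.00816), PLAU, urokinase (1.05, 0.0189), SPRR1A and IVL, cornified envelope proteins (2.97 and 1.91, 0.0282 and 0.0317), and the secreted factors LIF (2.52, 0.0327), HBEGF (2.04, 0.0376) and CXCL8 (2.03, 0.0386). The lower one was MMP1, interstitial collagenase, at -2.63 (adjusted p = 0.0393). Without stiff IPN replicate 2 these 8 passed again with CCND1, ITGA2 and TGM1, 11 of 29 in all against 8.17% of all genes, 10 higher and 1 lower, with a median of 0.59. Between stiff col and stiff IPN 11 of 29 passed with the block, against 2.47% of all genes, SPRR1A (-4.25), SPRR1B (-3.91), SPRR3 (-4.54), KRT16 (-2.61), LIF (-2.25), TNC (-2.25), HBEGF (-2.15), IVL (-1.70) and PLAU (-0.94) lower and AREG (2.38) and HMGA2 (1.02) higher in stiff col. Without stiff IPN replicate 2, with the block kept, these 11 kept their directions. The median of the list was then -0.336, against -0.477 with all 8 libraries. Neither comparison called a gene of the list without the block. Since the list was chosen with earlier results of these data known, its counts cannot be read as an enrichment over all genes.

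Of 18 tested genes with known EGR1 sites, 3 passed with the block between the IPNs, against 3.82% of all genes. TGFB1 was lower in stiff IPN, at -1.36 (adjusted p = 0.0171), and SPHK1 and THBS1 were higher by 1.03 (0.0304) and 0.92 (0.0406). Without stiff IPN replicate 2, with the block kept, TGFB1, SPHK1 and THBS1 were at -1.40, 0.93 and 0.70. Between replicates, 8 of 18 passed, against 27.1% of all genes, 5 of them higher (SPHK1, THBS1, HPSE and SOD1 among them) and 3 lower (TGFB1 and FN1 among them) in replicate 2.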

How the data were processed

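MCF10A cells in 4 hydrogels were measured by RNA-seq, with 2 libraries per gel (TruSeq RNA Library Prep Kit v2, paired ends). Per the paper's methods, the authors aligned trimmed reads to hg19, removed unmapped, low quality and multimapped reads, counted the rest per gene with HTSeq and used DESeq2. The paper's methods name Bowtie2 as the aligner and the submitters' processing notes list TopHat2 2.0.13. The gene annotation and strand setting are not given in the sources used here. The deposited values are a signal, namely read counts scaled by 1 factor per library and rounded by the authors, called normalized counts here. The factors (normalized count over reads), between 0.804 and 1.242, were read from the spacing of the values and give the reads per gene. Reads are not independent molecules, so counting errors cover counting only. Of the per-sample columns, 0 were left unused.

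Testing was limited to the 13369 genes whose normalized count reached 10 in 2 or more libraries. A linear model of log2(normalized count + 1) on gel was fitted in R 4.3.3 with limma 3.58.1 (trend and robust options, statmod 1.5.0), with Benjamini-Hochberg adjustment over all genes tested at 0.05. Fold changes on this scale understate those of low genes. Only the spread between 2 libraries per gel supports the p values. A count test was not used, because the values are already scaled and rounded. Replicate numbers were taken as pairing the libraries, since the change from replicate 1 to replicate 2 was shared between gels, with a Pearson r over all genes between 0.278 and 0.819 in the 6 pairs of gels, and the paper describes the 2 replicates as independent trials. Over the 10 genes alone r was -0.005, -0.081 and -0.257 in the 3 pairs with stiff IPN and between 0.837 and 0.91 in the others. The block was an alternative fit, and its values are given beside the others. The method was tested on simulated data, in which all gels had the same replicate shift or none. The simulation does not cover a replicate change that differs between gels, as that of the 10 genes did in stiff IPN. Positions are from GENCODE 44 lifted to hg19, and exon lengths are the union of exons. Python 3.11.15 was used for tables and plots. All 10 genes, the genes called in the 7 lists (or those with the lowest p) and the 3 genes most like each of the 10 are named, except for a few that are not reported here. The members and lists were chosen with earlier results of these data known.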

Additional observations from a re-analysis of the deposited data

How the results depend on the processing

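With the replicate block, the count of the 10 genes that passed moved from 0 to 3 in stiff IPN against soft IPN, to 1 in stiff col against stiff IPN and to 3 in stiff IPN against soft col:rBM, and it stayed at 0 in the other paired comparisons of gels. With the block and stiff IPN replicate 2 left out (chosen after seeing the data), the counts were 4, 1 and 2 for these (8.17%, 5.42% and 6.14% of all genes), 1 for stiff col against soft IPN (1.95%) and 3 for the F test (4.27%). Stiff IPN then rested on 1 library, whose spread is unknown. The counts that involve it rest on the spread within the other gels and do not show that a result holds. In that setting 8 of the differences between pairs of gels given gene by gene changed sign: between stiff and soft IPN FOSB (-1.188), JUND (-0.24) and ATF3 (-0.045), between stiff col and stiff IPN FOSB (1.024), JUN (-0.154) and ATF3 (0.203), and between stiff IPN and soft col:rBM FOSB (-1.371) and JUND (-0.063). Leaving out each library in turn without the block gave 3 to 7 genes between replicates. The 7 were found without stiff IPN replicate 1 or 2, where 43.7% and 43.6% of all genes passed. In the other settings 3 passed, as did between 1213 and 1635 of all 13369 genes. Leaving out 1 library left 1 in its gel, so only the differences are given for the gels. It turned the sign of EGR1 (-1.922 to 0.066 between the IPNs, -0.278 to 1.71 for stiff col against stiff IPN, -2.063 to 0.535 for stiff IPN against soft col:rBM), of FOSB (-0.339 to 0.857, -1.382 to 0.535 and -1.077 to 1.23 in the same comparisons), of JUN for stiff col against stiff IPN (-0.332 to 0.519), and between replicates of EGR3 (-0.364 to 0.01) and FOSL2 (-0.262 to 0.072). In the gel comparisons such a fit sets 1 replicate number of a gel against both of the other, so the replicate shift enters the difference. Within replicates 1 and 2, EGR1 kept 1 sign in these comparisons (-0.87 and -0.98, 0.63 and 0.80, -1.07 and -0.46). FOSB and JUN did not where their turns are given. How much of each turn came from that shift was not tested. The medians of the 10 genes moved with single libraries, as given beside them. Rescaling, pseudocounts of 0.5 and 5, other filters and fits of 2 gels alone kept every count of genes that passed. With 2 libraries per gel, differences smaller than the spread between replicates could not be detected without the block, and depth limits FOSB, ATF3 and EGR3.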
